A study of Mus musculus with 7 samples.

Results

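Elastic fibres give arteries their recoil. Their core is elastin, secreted as soluble tropoelastin and joined into an insoluble network by lysyl oxidases, and it is laid down on a scaffold of fibrillin microfibrils with the help of fibulins, EMILINs and latent TGF-beta binding proteins. In the artery wall smooth muscle cells make most of the elastin, largely before adulthood, and adventitial fibroblasts add microfibrils and fibulins.

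The genes described here are 10 elastic fibre and microfibril genes: Eln, Fbn1, Fbln5, Lox, Loxl1, Emilin1, Mfap4, Ltbp4, Efemp2 and Fbln2. They were chosen by name, and a gene was taken from an array row whose annotation names that gene and no other. This gave 7 genes, in 1 row each, of the 23332 rows. Fbn1 (fibrillin-1), Lox (lysyl oxidase) and Efemp2 (fibulin-4) have no row of their own name in the platform annotation and were not analysed here.

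The values come from mesenteric artery, the vessel bed that supplies the intestine. The first group is 3 male mice with a transgene for human PPARγ carrying the P467L change, a dominant-negative form of this lipid-sensing nuclear receptor, driven from the smooth muscle myosin heavy chain promoter. The second group is 4 non-transgenic littermates. Age and strain are not given in the labels. Each array is an Affymetrix mouse exon array and holds the RNA of 1 mouse, and while the promoter is one of smooth muscle, the RNA comes from the whole vessel. Fewer cells of a type and less RNA per cell therefore cannot be told apart in any value below.

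The arrays had medians of 6.29 to 6.34 and upper quartiles of 7.10 to 7.29 on the log2 scale. Of 10 measured smooth muscle markers 10 lay above the upper quartile on every array, among them Myh11 at 11.40 ± 0.067 (SD, n = 3) in P467L and 11.49 ± 0.063 (SD, n = 4) in non-transgenic artery. Pparg was at 6.66 ± 0.16 (SD, n = 3) in P467L and 6.78 ± 0.30 (SD, n = 4) in non-transgenic artery. Its probes were designed for the mouse gene, and this row is no check of the genotype. Among all rows limma, a linear model that pools information on the spread over rows, called 0 at an adjusted p of 0.05 and 724 at an unadjusted p of 0.05. These are 0% and 3.1% of all rows. P467L replicate 3 had the lowest upper quartile of all arrays, and values without it are given beside the results that move.

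None of the 7 measured elastic fibre genes showed a difference between the genotypes beyond the spread between mice. With 3 against 4 mice, differences within the intervals given below could have been missed. Of the 7 measured members 2 had higher and 5 lower means in P467L artery, and 0 passed at an adjusted p of 0.05 or at an unadjusted p of 0.05 (limma). The differences, P467L minus non-transgenic, ran from -0.23 for Mfap4 to 0.21 for Fbln5, with a median of -0.03. Over all rows the median was -0.0025 and 50.7% of rows were lower. In 0 of the 7 members were the values of the groups separate, against 2.57% of all rows. The exact two-sided permutation p of the members lay between 0.286 and 0.857, where 3 against 4 mice cannot go below 0.0571. Without P467L replicate 3 the median was -0.02, with 3 members higher and 4 lower. None passed at an adjusted p of 0.05 (limma, 0 of 7), while 2, Fbln5 and Fbln2, were under an unadjusted p of 0.05, as were 1145 of all 23332 rows.

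**Figure D1:**
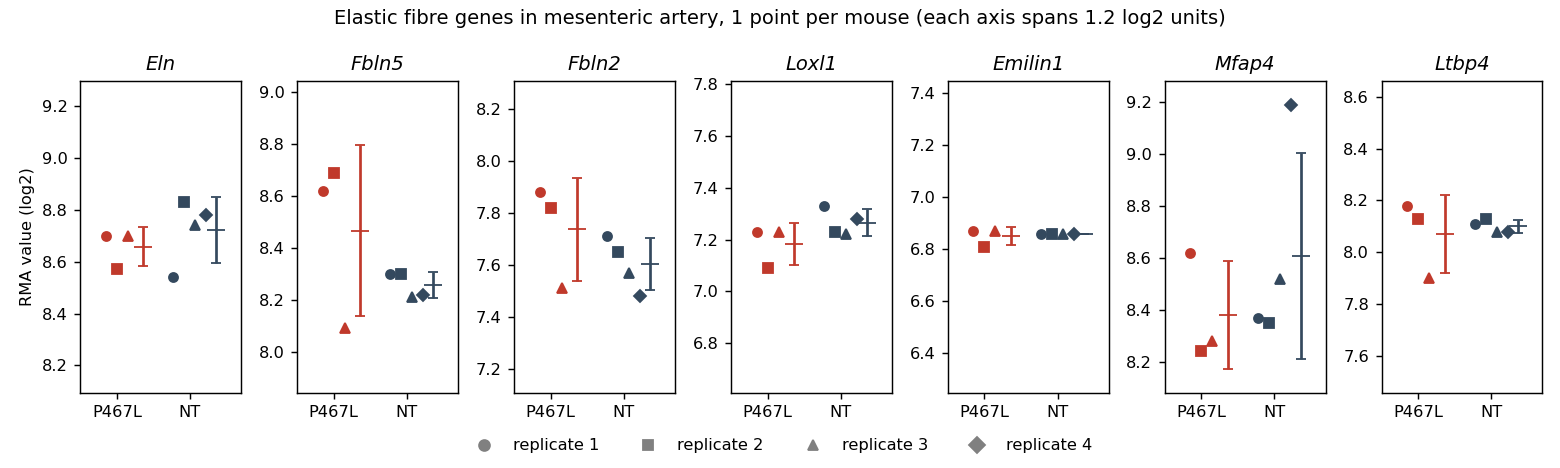
Log2 array value (y axis, 1.2 log2 units in every panel) of the 7 measured genes in P467L (red, left) and non-transgenic (NT, dark, right) mice. Each point is 1 mouse, the marker shape gives the replicate number within a group, and the bar shows mean ± SD. The groups overlap in every panel, and Fbln5 has 2 P467L mice above and 1 below the 4 non-transgenic mice.

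Elastin itself, the core protein of the fibre, was well above the middle of the array in every mouse. Eln was at 8.70, 8.57 and 8.70 in P467L replicates 1 to 3, against 8.54, 8.83, 8.74 and 8.78 in non-transgenic replicates 1 to 4. The P467L values all lay within the non-transgenic range, whose lowest and highest mice were replicates 1 and 2. The means were 8.657 ± 0.075 (SD, n = 3) in P467L and 8.723 ± 0.13 (SD, n = 4) in non-transgenic artery. The difference was -0.066 (SE 0.081; limma, adjusted p = 1). As a ratio of P467L over non-transgenic this is 0.955, with a 95% interval of 0.833 to 1.10. Without non-transgenic replicate 1, the lowest mouse, the difference was -0.127 (limma, adjusted p = 1), and without P467L replicate 2 it was -0.0225 (adjusted p = 0.985).

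Loxl1, the lysyl oxidase-like enzyme that cross-links elastin and binds fibulin-5, was the member with the smallest p. It was at 7.23, 7.09 and 7.23 in P467L mice, against 7.33, 7.23, 7.22 and 7.28 in non-transgenic mice. P467L replicate 2 was the lowest of all mice, while the other P467L mice stood at the lower end of the non-transgenic values. The difference was -0.082 (SE 0.052, 95% interval -0.21 to 0.046; limma, adjusted p = 1). Without P467L replicate 2 it was -0.035 (adjusted p = 0.906).

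Fbln5 and Fbln2 had higher means in P467L artery, with the same P467L mice high in both. Fbln5 codes for fibulin-5, which tethers tropoelastin to microfibrils and binds integrins on the cell surface. It was at 8.62, 8.69 and 8.09 in P467L replicates 1 to 3, against 8.30, 8.30, 8.21 and 8.22 in non-transgenic mice. P467L replicates 1 and 2 lay above every non-transgenic mouse, and P467L replicate 3 lay below every one. The means were 8.467 ± 0.33 (SD, n = 3) in P467L and 8.258 ± 0.049 (SD, n = 4) in non-transgenic artery. The difference was 0.21 (SE 0.15, 95% interval -0.16 to 0.57; limma, adjusted p = 1; exact two-sided permutation p = 0.286). Without P467L replicate 3 the difference was 0.397 (limma, adjusted p = 0.639, unadjusted 0.000374), and without P467L replicate 2 it was 0.0975 (adjusted p = 0.934).

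Fbln2, fibulin-2, a binder of fibrillin and elastin that is abundant in vessel walls, showed the same split. It was at 7.88, 7.82 and 7.51 in P467L mice, against 7.71, 7.65, 7.57 and 7.48 in non-transgenic mice. P467L replicates 1 and 2 again lay above every non-transgenic mouse, and P467L replicate 3 fell among the lower ones. The difference was 0.13 (SE 0.11, 95% interval -0.13 to 0.39; limma, adjusted p = 1). Without P467L replicate 3 it was 0.247 (adjusted p = 0.901), and without P467L replicate 1 it was 0.0625 (adjusted p = 1).

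The start regions of Fbln5 and Fbln2 are shown because the transgene codes for a DNA-binding receptor and these members had the higher means. Neither difference passed in limma, so the choice rests on a direction that was not established. RefSeq start regions of the GRCm38.p6 build, 250 bases before to 50 after each start, were found for 4 of the 7 measured members (Emilin1, Fbln2, Fbln5 and Ltbp4). The letters searched on both strands were the half-site AGGTCA that PPARγ and its partner RXR recognise, the repeat AGGTCANAGGTCA, the TATA box TATAAA, the GC box GGGCGG and the smooth muscle CArG box. Capitals mark every match, and no matches overlapped in the sequences printed.
Fbln5, chr12:101819070-101819369, minus strand: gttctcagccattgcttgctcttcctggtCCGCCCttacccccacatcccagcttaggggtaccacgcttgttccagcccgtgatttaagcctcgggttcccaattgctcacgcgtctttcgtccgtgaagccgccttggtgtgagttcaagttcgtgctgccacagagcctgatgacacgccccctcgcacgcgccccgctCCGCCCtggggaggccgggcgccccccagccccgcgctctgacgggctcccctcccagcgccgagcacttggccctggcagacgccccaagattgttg
Fbln5, chr12:101818435-101818734, minus strand: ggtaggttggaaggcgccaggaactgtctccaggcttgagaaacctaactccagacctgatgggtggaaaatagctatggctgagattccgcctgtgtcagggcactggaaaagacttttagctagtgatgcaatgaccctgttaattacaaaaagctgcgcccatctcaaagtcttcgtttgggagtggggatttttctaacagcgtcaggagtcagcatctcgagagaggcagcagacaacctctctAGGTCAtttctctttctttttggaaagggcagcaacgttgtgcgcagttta
Fbln2, chr6:91212514-91212813, plus strand: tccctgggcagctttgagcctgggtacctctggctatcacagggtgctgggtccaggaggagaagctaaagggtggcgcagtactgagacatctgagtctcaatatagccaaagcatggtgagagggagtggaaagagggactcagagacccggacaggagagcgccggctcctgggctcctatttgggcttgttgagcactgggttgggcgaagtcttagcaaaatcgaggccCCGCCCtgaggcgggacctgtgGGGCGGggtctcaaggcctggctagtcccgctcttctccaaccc
The second Fbln5 start holds 1 half-site, whose first base is at position -1 from the start. No other half-site was found in the 7 start regions of these 4 genes. Across 32851 RefSeq start regions of this length 16.3% hold such a half-site. The first Fbln5 start holds 2 GC boxes and so does the Fbln2 start, against 35.7% of all start regions with at least 1 GC box. The start regions of Ltbp4, whose mean was lower in P467L artery, hold 7 and 9 in overlapping windows and 3 in another. The Emilin1 start holds 0. The repeat (0.0396% of all start regions), the CArG box (1.63%) and the TATA box (13.6%) have no match in the windows of these 4 genes. A match is a description of letters and not a measured binding site.

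On the microfibril side, Mfap4, a microfibril-associated protein that binds elastin and collagen and is made by smooth muscle, was at 8.62, 8.24 and 8.28 in P467L mice, against 8.37, 8.35, 8.52 and 9.19 in non-transgenic mice. Non-transgenic replicate 4 stood above all other mice, and the remaining values overlapped. The means were 8.38 ± 0.21 (SD, n = 3) in P467L and 8.607 ± 0.40 (SD, n = 4) in non-transgenic artery. The difference was -0.23 (SE 0.23, 95% interval -0.80 to 0.34; limma, adjusted p = 1). Without non-transgenic replicate 4 it was -0.0333 (adjusted p = 1), and without P467L replicate 1 it was -0.348 (adjusted p = 1).

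Ltbp4, the latent TGF-beta binding protein that helps fibulin-5 onto microfibrils, was at 8.18, 8.13 and 7.90 in P467L mice, against 8.11, 8.13, 8.08 and 8.08 in non-transgenic mice. The non-transgenic mice lay within 0.05 of each other, and P467L replicate 3 stood below them all. The difference was -0.03 (SE 0.072, 95% interval -0.21 to 0.15; limma, adjusted p = 1). Without P467L replicate 3 it was 0.055 (adjusted p = 0.901), the other direction.

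Emilin1, a glycoprotein at the interface of elastin and microfibrils, was at 6.87, 6.81 and 6.87 in P467L mice, against 6.86 in all 4 non-transgenic mice. Such ties are common in these values: 4671 of the 23332 rows hold 1 value on 4 or more arrays. The difference was -0.01 (95% interval -0.084 to 0.064; limma, adjusted p = 1), an interval computed from tied values. Without P467L replicate 2 it was 0.01 (adjusted p = 0.963), the other direction.

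**Figure D2:**
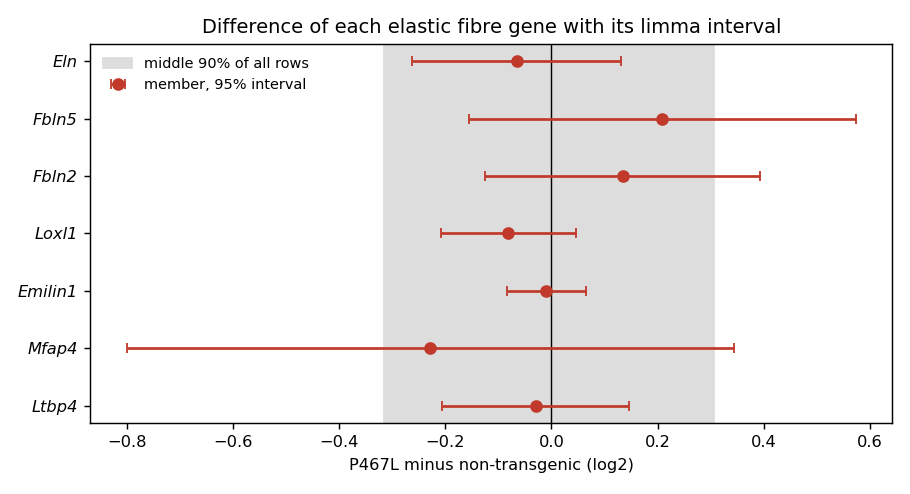
Difference P467L minus non-transgenic on the log2 scale (x axis) of each measured gene, with its 95% interval from limma. The grey band holds the middle 90% of all 23332 rows, from -0.315 to 0.306. All 7 intervals include 0 and all 7 points lie within the band.

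At baseline, 5 of the 7 members lay above the upper quartile on every array: Eln, Fbln5, Fbln2, Mfap4 and Ltbp4. Loxl1 lay near the upper quartile and Emilin1 between the median and the upper quartile. Probes differ in how well they bind, so these positions give no order of transcript amounts between genes. The non-transgenic mice differed little from each other in most members. For 6 of the 7 the SD over these mice was under the median SD of the 1000 rows closest in mean, as for Fbln5 at 0.049 against 0.175 and Ltbp4 at 0.024 against 0.167. Emilin1 is among the 6 through its tied non-transgenic values (SD 0). Mfap4 was the exception, at 0.40 against 0.172, and its highest non-transgenic mouse had 1.79 times the level of its lowest.

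The P467L mice differed more from each other than the non-transgenic mice did in 5 of the 7 members, the exceptions being Eln and Mfap4. Emilin1 is counted here and below for any spread of its P467L values, because its non-transgenic SD was 0. The median SD of the members was 0.149 in P467L and 0.0507 in non-transgenic mice. Over all rows it was 0.163 in P467L and 0.135 in non-transgenic mice, and 58.9% of rows had the larger SD in P467L mice. For Fbln5 the highest P467L mouse had 1.52 times the level of the lowest P467L mouse, against 1.06 times between non-transgenic mice. Without P467L replicate 3 the SDs of the other 2 P467L mice were 0.0495 for Fbln5, 0.0424 for Fbln2 and 0.0354 for Ltbp4, and the members' median SD was 0.0495. The SD was still larger than in non-transgenic mice for 4 of the 7 members: Fbln5 (0.0495 against 0.0492), Loxl1, Emilin1 and Ltbp4. Over all rows the median SD was then 0.099, and 41.3% of rows had the larger SD in P467L mice. These counts set SDs of 2 mice against SDs of 4, so the groups are not of like size.

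Fibroblast markers shared the split of Fbln5 and Fbln2 among P467L mice, while the order among non-transgenic mice matched only in part. Of 11 measured fibroblast markers the mean was higher in P467L artery for 9 and lower for 2 (median difference 0.142), and 0 passed at an adjusted p of 0.05 (limma). Their values, as the mean deviation from each gene's mean over the arrays, were 0.145, 0.144 and -0.0647 in P467L replicates 1 to 3, against 0.0253, -0.215, -0.0783 and 0.0426 in non-transgenic replicates 1 to 4. The highest arrays were P467L replicates 1 and 2, the mice that were highest in Fbln5 and Fbln2. Among non-transgenic mice, replicate 4 was the highest in these markers and the lowest in Fbln2 (7.48). Non-transgenic replicate 1, at 0.0253 in these markers, was the highest non-transgenic mouse in Fbln2 (7.71). Non-transgenic replicate 2 was the lowest in these markers and at 8.30 in Fbln5, whose non-transgenic values lay within 0.09 of each other. Endothelial markers also split the P467L mice this way, at 0.116, 0.0896 and -0.147, while their highest array was non-transgenic replicate 1 at 0.206. A low P467L replicate 3 was not particular to these markers. It was the lowest P467L mouse also in smooth muscle markers (-0.0577, -0.0457 and -0.147) and macrophage markers (0.046, 0.388 and -0.131). The same held for each of the 5 pathway lists below, but not for adipocyte, mesothelial and nerve or Schwann cell markers. Summed on the linear scale, the fibroblast markers reached 6814 to 8340 units in P467L and 5844 to 7253 in non-transgenic mice, and none of the 11 lay below the lower quartile on every array.

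Smooth muscle markers went the other way. All 10 measured had lower means in P467L artery, the median difference was -0.134, and 0 passed (limma). Without P467L replicate 3 the medians were -0.119 for smooth muscle and 0.242 for fibroblast markers, with 10 of 10 lower and 11 of 11 higher. Their summed level was 15380 to 16530 units in P467L and 16370 to 18040 in non-transgenic mice. Among 9 adipocyte markers the mean was lower for 8 (median -0.237), and summed levels were 1519 to 2443 units in P467L and 1497 to 4576 in non-transgenic mice. Non-transgenic replicate 1 was the highest mouse, with a mean deviation of 0.715, and without it 5 of 9 were lower (median -0.0367). For macrophage markers 11 of 11 means were higher (median 0.163), and sums were 1157 to 1815 units in P467L and 1148 to 1491 in non-transgenic mice. The macrophage median was 0.27 without P467L replicate 3 and 0.297 without non-transgenic replicate 1. For endothelial markers 8 of 12 means were higher (median 0.0171), and sums were 3267 to 4188 units in P467L and 3296 to 4303 in non-transgenic mice. All 12 endothelial means were higher without P467L replicate 3 (median 0.0775), as they were without non-transgenic replicate 1 (median 0.075). Mesothelial (3 of 7 higher) and nerve or Schwann cell markers (4 of 5 higher) had medians of -0.00083 and 0.0475, which were -0.035 and 0.005 without P467L replicate 3 (3 of 7 and 3 of 5 higher). The part of these cells in the values of the elastic fibre genes was not tested.

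**Figure D3:**
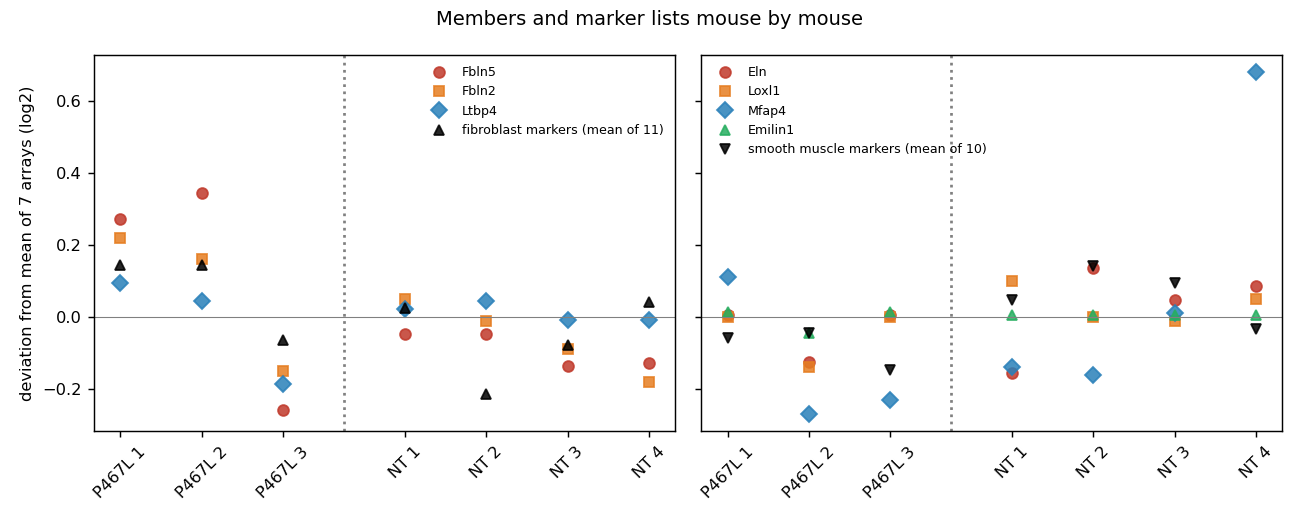
Deviation from the mean of the 7 arrays on the log2 scale (y axis) in each mouse (x axis, P467L left of the dotted line, non-transgenic, NT, right). Fbln5, Fbln2 and Ltbp4 are shown with the mean of 11 fibroblast markers, and Eln, Loxl1, Mfap4 and Emilin1 with the mean of 10 smooth muscle markers. P467L replicates 1 and 2 are high and P467L replicate 3 is low in Fbln5, and non-transgenic replicate 4 is high in Mfap4.

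The wider pathway was read from 5 lists of 94 genes, of which 82 were measured. Of these 33 had higher and 47 lower means in P467L artery, against 44 higher and 36 lower without P467L replicate 3, and 0 passed at an adjusted p of 0.05 (limma). At an unadjusted p of 0.05 there were 5 (6.10%), against 3.1% of all rows, and the groups of 3 (3.66%) did not overlap, against 2.57% of all rows. The lists were chosen with earlier results of these data known, so these shares are a description and not a test of the pathway. In each list the 3 genes of smallest p are named.

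Among 17 measured relatives of the microfibril and fibulin genes, 7 had higher and 9 lower means, with a median of -0.00083. There were 8 of each without P467L replicate 3 (median 0), and without non-transgenic replicate 1 there were 10 higher and 6 lower (median 0.0133). Mfap3, a microfibril-associated membrane glycoprotein, differed by 0.26 and was at 7.73, 8.02 and 7.43 in P467L mice, against 7.58, 7.61, 7.35 and 7.34 in non-transgenic mice. P467L replicates 1 and 2 lay above every non-transgenic mouse, as in Fbln5 and Fbln2, and without P467L replicate 3 the difference was 0.405. Thsd4, which promotes fibrillin-1 assembly, differed by -0.16, and Ltbp3, a latent TGF-beta binding protein, by -0.05 (limma, adjusted p = 1 for each). Fbn2, fibrillin-2, named after its values were seen because Fbn1 was not measured, was at 5.80 on all 7 arrays.

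Among 14 genes of cross-linking and fibre maturation, 6 had higher and 7 lower means, with a median of -0.0054. There were 8 higher and 5 lower both without P467L replicate 3 (median 0.0375) and without non-transgenic replicate 1 (median 0.0233). Fkbp14, a prolyl isomerase of the endoplasmic reticulum that acts on collagen, had the largest difference of the list. It was at 7.98, 7.86 and 7.45 in P467L mice, against 7.57, 7.06, 7.29 and 7.33 in non-transgenic mice, a difference of 0.45 (SE 0.17; limma, adjusted p = 1, unadjusted 0.0366). The groups overlapped through P467L replicate 3, without which the difference was 0.607. The lysyl oxidase-like enzymes Loxl2 and Loxl3 differed by 0.18 and -0.064, so that with Loxl1 the means of this family lay on both sides of 0 and none passed (limma, adjusted p = 1 for each).

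Proteoglycans and glycoproteins found along elastic fibres held 2 of the 3 pathway genes whose groups were separate. Of 15 measured, 7 had higher and 8 lower means, with a median of -0.03, against 8 higher and 7 lower without P467L replicate 3 (median 0.0375). Postn, periostin, a matricellular protein, was at 9.52, 9.45 and 8.62 in P467L mice, against 10.08, 9.70, 10.16 and 9.73 in non-transgenic mice. All P467L mice lay below all non-transgenic mice. The ratio of P467L over non-transgenic was 0.607 (95% interval 0.393 to 0.937; limma, adjusted p = 1, unadjusted 0.0305), and without P467L replicate 3 the log2 difference was -0.433, against -0.72 with it. Dcn, decorin, a small proteoglycan that is also in the fibroblast list, was at 11.56, 11.42 and 11.42 in P467L mice, against 11.27, 10.94, 11.25 and 11.33 in non-transgenic mice. All P467L mice lay above, with a difference of 0.27 (limma, adjusted p = 1). Tnc, tenascin-C, differed by -0.17 (limma, adjusted p = 1).

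Of 20 genes for elastin-degrading enzymes and for protease inhibitors 10 had higher and 10 lower means, with a median of 0.0025. There were 12 higher and 8 lower without P467L replicate 3 (median 0.09), and without non-transgenic replicate 1 there were 11 higher and 9 lower (median 0.0484). Timp4, an inhibitor of matrix metalloproteinases, was at 7.93, 8.07 and 8.44 in P467L mice, against 8.93, 9.01, 8.89 and 8.84 in non-transgenic mice, and the groups did not overlap. Its ratio of P467L over non-transgenic was 0.586 (95% interval 0.474 to 0.725; limma, adjusted p = 1, unadjusted 0.000834), the smallest unadjusted p of the 82 pathway genes. The log2 difference was -0.77, and -0.918 without P467L replicate 3. Prtn3, a neutrophil serine protease able to cut elastin, differed by 0.16, and Serping1, the C1 inhibitor, by 0.17 (limma, adjusted p = 1 for each).

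Of 16 genes for receptors and ligands of elastic fibres and latent TGF-beta, 3 had higher and 13 lower means, with a median of -0.036, against 50.7% of all rows lower. There were 8 higher and 8 lower without P467L replicate 3 (median 0.00375), and without non-transgenic replicate 1 there were 3 higher and 13 lower (median -0.02). The ligands Tgfb2 and Tgfb3 differed by -0.36 and -0.33, and the integrin subunit gene Itgav by -0.20 (limma, adjusted p = 1 for each). Tgfb3 was at 9.57, 9.57 and 8.84 in P467L mice, against 9.72, 9.73, 9.77 and 9.39 in non-transgenic mice, and the groups overlapped through non-transgenic replicate 4. P467L replicate 3 was the lowest mouse for both ligands, and without it Tgfb2 and Tgfb3 differed by -0.115 and -0.0825.

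**Figure D4:**
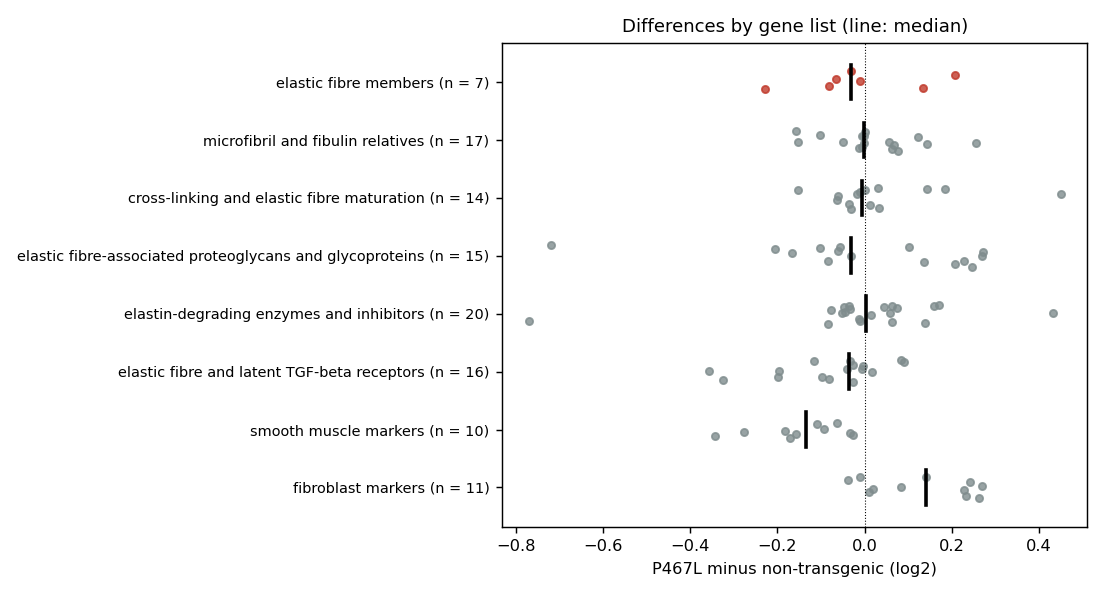
Difference P467L minus non-transgenic on the log2 scale (x axis) for each measured gene of the elastic fibre members (red), the 5 pathway lists and the smooth muscle and fibroblast markers, with a line at each median. The members' median of -0.03 lies between that of smooth muscle markers, -0.134, and that of fibroblast markers, 0.142. So do the median of all rows, -0.0025, and the medians of the 5 pathway lists.

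The mean profile of the 7 members, as deviation from each gene's mean, was 0.102, -0.0049 and -0.115 in P467L replicates 1 to 3, against -0.0235, -0.0049, -0.0263 and 0.0722 in non-transgenic replicates 1 to 4. P467L mice held both the highest and the lowest value. Over these 7 arrays the named genes with the most similar profile, by Pearson's r, were Mrps26, a mitochondrial ribosomal protein gene (r = 0.958), Tmem64 (0.956), BC023105 (0.956), D3Ertd751e (0.954) and Ostn (0.947). These are the top of 14996 rows with 1 symbol and are given as a description. BC023105 was at 2.31 to 2.60, far below the lower quartile of every array.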

How the data were processed

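Mesenteric artery RNA of 7 mice was measured on 1 array per mouse. The deposited log2 values were made by the authors with RMA in Affymetrix Power Tools (build mm9), per the submitters' processing notes. Their versions and options are not given here. RMA usually includes quantile normalization and median polish, and its steps as a whole can shrink differences of dim probes and return ties. Of 23332 rows, 14996 had 1 gene symbol in the platform annotation, 1019 several and 7317 none. The table held 0 other columns of per-sample values.

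All rows were fitted with limma 3.58.1 in R 4.3.3 (lmFit, eBayes, no covariate), and p-values were adjusted by Benjamini-Hochberg over all 23332 rows (threshold 0.05). The median standard error was 0.117. Precision is limited by the 7 arrays. The fit was tested on simulated data. Members, lists and alternatives were chosen with earlier results of these data known, and the lists' genes are named by smallest p (3 per list), the similar genes by r (5). Start regions came from RefSeq (GRCm38.p6), which differs from the submitters' build, so no row was placed by coordinates. Same-numbered mice of the groups are not stated to be paired. Alternatives were a further quantile normalization, median centring, leaving out dim rows, trended robust moderation, array weights, a replicate block, each array left out and, chosen after seeing the data, leaving out tied rows.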

Additional observations from a re-analysis of the deposited data

Results flagged for a closer look

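In 22 genes named here, members included, the 4 non-transgenic mice were checked for a mouse far from the rest, which chance gives in about 1 of 20 groups. No member was found this way. Serping1 was at 9.85 in non-transgenic replicate 2, against 10.09 to 10.12 in the other non-transgenic mice. Tgfb3 was at 9.39 in non-transgenic replicate 4, against 9.72 to 9.77. Ltbp3 at 6.99 in non-transgenic replicate 2 and Loxl3 at 6.87 in non-transgenic replicate 3 stood out from mice tied at 6.95 and 6.80. With the other mice tied, any different value is flagged, so the rate of 1 in 20 does not hold for Ltbp3 and Loxl3.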

How the results depend on the processing

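Under 15 alternatives the number of rows past the threshold stayed at 0 in limma, as did the number of members. At an unadjusted p of 0.05 (limma) there were 2 members with array weights, where 2834 of all 23332 rows were under it. Without P467L replicate 3 there were also 2 members, beside 1145 of all rows. The other alternatives gave 0 members, and the main fit had 724 rows under this p. Over the members the lowest adjusted p was 0.322 (Fbln5 with array weights, difference 0.341). Of 104 single-gene values under these alternatives 100 kept their direction. The 4 that turned were Ltbp4 with array weights (0.0578) and without P467L replicate 3 (0.055), and Emilin1 with array weights (0.0036) and without P467L replicate 2 (0.01). The number of members with lower means was 3 with array weights, where P467L replicate 1 had a weight of 3.54 against 0.463 and 0.334 for replicates 2 and 3, and 4 to 5 with 1 array left out. The median difference of the members ran from -0.085 to -0.02 with 1 array left out and was 0.0036 with array weights. The cause of these shifts was not tested. With the replicate block the median was -0.0333, 5 members were lower and 0 passed, while Mfap4 was at -0.0333 and Fbln2 at 0.0933. Deviations of same-numbered mice correlated across rows at 0.116, -0.205 and -0.0904 (rows are not independent replicates). Differently numbered mice were not compared, so these values do not settle whether the numbers pair the mice. With tied rows left out, Emilin1 was no longer tested and the median was -0.0479. No member has another row, so the planned change of row was not possible. The median SD over non-transgenic mice was 0.0451 to 0.0608 with 1 of them left out.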
